A study of Mus musculus with 25 samples.

Results

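The transcripts described here encode the complement and blood clotting proteins that the liver puts into plasma, followed in mouse hepatocytes on normal diet and at 6 weekly time points of a diet used to bring on non-alcoholic steatohepatitis (NASH), fatty liver with inflammation and scarring. They were chosen by symbol from a list of 41 liver-made complement, clotting and fibrinolysis genes. Of these, 40 were in the count table of 37085 symbols and all 40 were among the 11869 genes tested. Klkb1, the gene of plasma prekallikrein, was not analysed here. Of the 40, 18 belong to complement and 22 to clotting, its inhibitors and fibrinolysis.

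Complement is a set of plasma proteins that mark and lyse microbes. It is started by antibody (classical pathway), by sugars on a surface (lectin pathway) or by slow activation of C3 itself (alternative pathway), and all of these routes cut C3 and end in a pore, the membrane attack complex. Clotting is a chain of proteases that ends in thrombin, which turns fibrinogen into fibrin, and plasmin dissolves that fibrin again. Hepatocytes are the main source of nearly all of these proteins, and several of them are acute phase proteins, whose synthesis changes in inflammation. Protein S is also made by other cells, among them endothelial cells.

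The libraries came from C57BL/6 mice in 7 groups: 5 libraries from normal diet, and 4, 3, 4, 3, 3 and 3 libraries after 1, 2, 3, 4, 5 and 6 weeks of NASH diet. Hepatocytes were freed from perfused livers with collagenase, spun down gently and collected by flow sorting, and tags from the 3' ends of polyadenylated RNA were sequenced. The sources used here do not give the composition of the diet, the age or sex of the mice or the sorting gate. Libraries are numbered within a group with no statement on whether they are different mice. The p-values therefore describe the spread between libraries, which may be technical. Each library held 5281143 to 10015751 counts. Levels are given as CPM, counts per 1000000 library counts, after composition scaling with TMM, a method that lines up the bulk of the genes. Since 1 transcript gives about 1 tag whatever its length, levels of different genes can be set beside each other without division by length. A gene was called when its adjusted p was under 0.05 in edgeR's quasi-likelihood test with Benjamini-Hochberg adjustment over all genes tested. All adjusted p-values below come from that test.

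The hepatocyte label held: the 12 hepatocyte markers, Alb among them, summed to 83790 to 93090 CPM in the week 5 libraries and 90310 to 95670 CPM in those of week 6, against 120500 to 130500 CPM on normal diet. Without TMM scaling they took 10.12% ± 0.639 and 10.32% ± 0.319 of all counts at weeks 5 and 6 (SD, n = 3 each). On normal diet that share was 11.25% ± 0.417 (n = 5). Markers of other liver cells were present as well, and those of several cell types were higher late in the diet. The 2 tested cholangiocyte markers were not: they summed to 30.1 and 38.7 CPM on average at weeks 5 and 6, against 42.0 CPM on normal diet. The 15 tested Kupffer cell markers summed to 2038 to 2214 CPM at week 5 and 1745 to 1982 CPM at week 6, against 201 to 761 CPM on normal diet. The 18 sinusoidal endothelial markers summed to 2222 to 2574 CPM at week 5 and 1813 to 2228 CPM at week 6, against 244 to 950 CPM on normal diet. At week 5, 15 of 15 Kupffer, 18 of 18 endothelial, 14 of 15 stellate and 18 of 19 monocyte, macrophage and dendritic markers were called higher. Normal-diet libraries 1 and 5 had the lowest scores over 42 such markers (2.52 and 2.22 on the log2 CPM scale, against 3.29 to 3.89 in the other normal-diet libraries). The part of these cells in the results below was not tested, and in bulk RNA fewer hepatocytes and less RNA per hepatocyte cannot be told apart.

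On normal diet these genes were among the abundant messages of the cell. Together the 40 took 3.38% ± 0.311 of all counts (SD, n = 5), and 10 of them stood at 1000 CPM or more, 23 from 100 to 1000 CPM, 5 from 10 to 100 CPM and 2 under 10 CPM. Their share was 2.71% ± 0.027 in week 5 libraries and 2.89% ± 0.068 in week 6 libraries (SD, n = 3 each). The highest levels were those of the fibrinogen chains and of C3, and the 2 under 10 CPM were Masp1 and Cfb.

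Few members were called before week 4. No member was called at week 1 or week 2, and 1 was called at week 3, the lectin Mbl2. At week 4, 9 members were called lower, at week 5 36 were called lower and 1, Pros1, higher, and at week 6 27 were called lower. Of all genes tested, 0.977% were called lower at week 1, 0.657% at week 2, 0.607% at week 3, 2.86% at week 4, 16.3% at week 5 and 10.5% at week 6, and 19.1% were called higher at week 5. The median log2 fold change of the members was -0.03, -0.09, -0.10, -0.31, -0.59 and -0.44 at weeks 1 to 6, beside 0.02, 0.00, 0.02, -0.01, -0.05 and -0.05 over all genes tested. Abundant genes were also called lower more often: of the 2131 genes at 50 CPM or more, 43.7% were called lower at week 5 and 30.7% at week 6, with medians of -0.31 and -0.26. At an unadjusted p under 0.05 in edgeR, 9 of the 40 members passed at week 1 and 5 at week 2, beside 10.4% and 12.2% of all genes. DESeq2's test called 2 and 0 of them after adjustment, and limma voom 0 at both weeks.

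**Figure D1:**
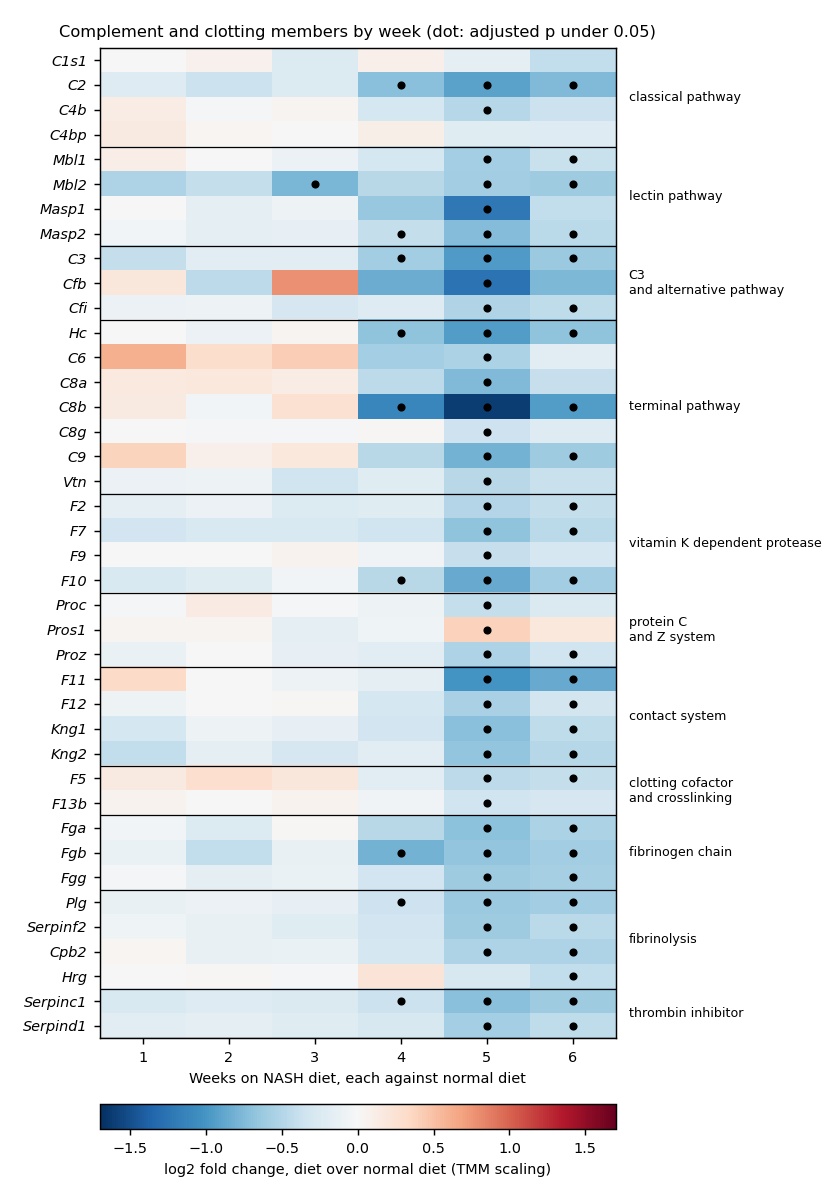
Log2 fold change of each of the 40 members (rows, by role) at each week of NASH diet against normal diet (columns), with TMM scaling; blue is lower and red is higher on the diet, and a dot marks an adjusted p under 0.05. The blue columns at weeks 5 and 6 hold 36 and 27 lower calls, and the only higher call is Pros1 at week 5. When libraries are scaled to hepatocyte markers instead, 19 of the 36 lie above 0, and the median of all genes lies at 0.60.

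The direction of these changes depended on what the libraries were scaled to. With library size alone, 17 of the 40 members were called at week 5, 16 lower and Pros1 higher, beside 34.9% of all genes in either direction. At week 6, 4 were called, C2, Plg and Serpinc1 lower and Pros1 higher, beside 29.4% of all genes in either direction. The share of all genes called lower alone is not given on that scale. On that scale the median member stood at -0.26 at week 5 and -0.14 at week 6, beside 0.28 and 0.25 over all genes. The 12 hepatocyte markers were themselves lower under TMM, with medians of -0.70 at week 5 (8 of 12 called lower) and -0.59 at week 6 (7 of 12). Libraries were also scaled to those 12 markers, by the mean of their log2 CPM with equal weight for each. A scale from their summed counts, whose share was 11.25% on normal diet, 10.12% at week 5 and 10.32% at week 6, was not fitted. On the scale used, 19 of the 36 lower calls of week 5 and 24 of the 27 of week 6 turned above 0. The median over all genes stood at 0.60 at week 5 and 0.66 at week 6 there, above that of the members. On that scale 1 member, C8b, was called lower at week 5 and 6 were called higher (C1s1, C4bp, C8g, Pros1, F13b and Hrg), beside 0.868% and 57.6% of all genes. At week 6 none was called lower there by edgeR, also at an unadjusted p under 0.05, and 11 were called higher, beside 0.632% and 66.1% of all genes, and the median member stood at 0.06 at week 5 and 0.27 at week 6. In either direction, 7 of the 40 members were called at week 5 on that scale and 11 at week 6.

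**Figure D2:**
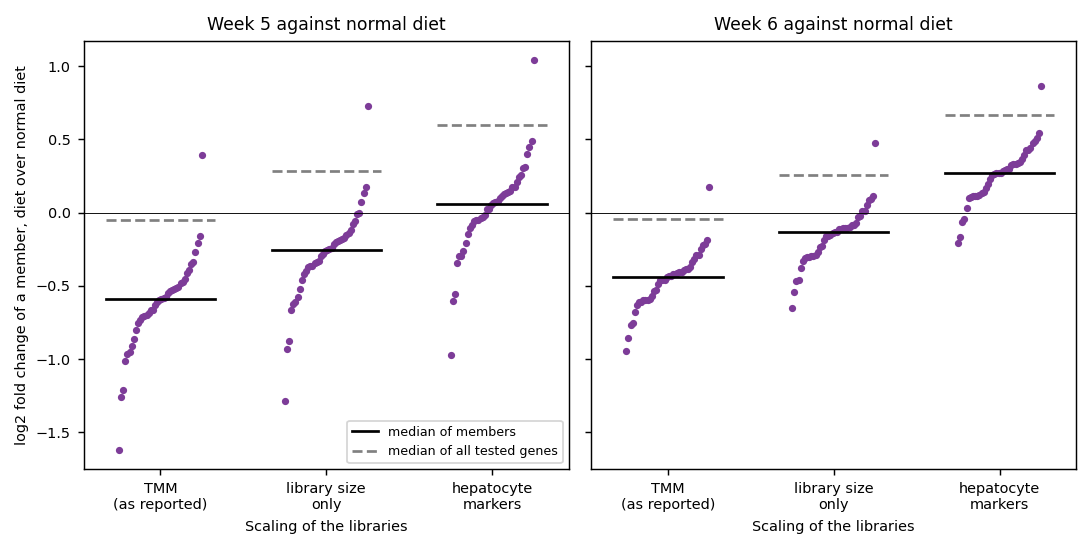
Log2 fold changes of the 40 members (points, sorted) at week 5 and week 6 of NASH diet over normal diet with libraries scaled by TMM, by library size only or to 12 hepatocyte markers; solid lines are the medians of members and dashed lines those of all genes tested. The members' median at week 5 lies at -0.59, -0.26 and 0.06 on these scales, below the median of all genes on each.

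Of the genes that start complement, 2 of 4 classical pathway members and 4 of 4 lectin pathway members were called lower at week 5. At week 6, 1 and 3 of them were. Counts by role, here and below, stand beside 16.3% of all genes called lower at week 5 and 10.5% at week 6. Among genes at 50 CPM or more these shares were 43.7% and 30.7%. C2, the protease that with C4 makes the C3-cutting enzyme, had 48.3, 53.5 and 50.4 CPM at week 5 and 55.3, 57.2 and 56.6 CPM at week 6, against 95.5, 109, 117, 86.4 and 68.4 CPM on normal diet. All libraries of weeks 5 and 6 lay below every normal-diet library. Its log2 fold change was -0.91 ± 0.15 at week 5 (SE, adjusted p = 6.53e-05) and -0.76 ± 0.15 at week 6 (adjusted p = 0.000571). It also passed at week 4 (-0.71 ± 0.15, adjusted p = 0.00613), but not without library 1 of that week (adjusted p = 0.0644). C4b, which encodes the partner of C2 in that enzyme and shares near-identical sequence with C4a, passed at week 5 only (-0.48 ± 0.16, adjusted p = 0.0221), with libraries at 359, 391 and 356 CPM against 434 to 696 CPM on normal diet. Without normal-diet library 2, the highest, its adjusted p was 0.076.

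C1s1, the protease subunit of the C1 complex, and C4bp, which holds C4 in check in plasma, were the 2 members called at no week. C1s1 had 228, 215 and 216 CPM at week 5, against 215, 289, 268, 237 and 220 CPM on normal diet, and the groups overlapped. C4bp had 250, 241 and 258 CPM at week 5, against 299, 299, 303, 259 and 278 CPM on normal diet, without overlap but with an adjusted p of 0.185. Relative to the hepatocyte markers both were called higher at week 5, as were 57.6% of all genes.

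Mbl2, a mannose-binding lectin that recognises microbial sugars, was the earliest to pass. It had 216, 282, 334 and 329 CPM at week 3, against 464, 505, 358, 604 and 556 CPM on normal diet, a log2 fold change of -0.78 ± 0.16 (SE, adjusted p = 0.00964). No week 3 library reached the lowest on normal diet, but without the lowest of them, library 1, the adjusted p was 0.0647. At weeks 1, 2 and 4 it stood at -0.53, -0.40 and -0.48 and was not called by edgeR, while DESeq2's test called it at week 1. It was called lower at week 5 (-0.59 ± 0.17, adjusted p = 0.00937) and week 6 (-0.61 ± 0.17, adjusted p = 0.00946, and 0.064 without library 3 of that week). Its trend over weeks 1 to 6 was not called under TMM (-0.02 ± 0.03 per week, adjusted p = 0.677). Relative to hepatocyte markers it was called as rising (0.07 ± 0.03 per week, adjusted p = 0.049), as were 40.8% of all genes. Mbl1, the other mannose-binding lectin of the mouse, followed another course: it passed at week 5 (-0.58 ± 0.13, adjusted p = 0.00113) and week 6 (-0.38 ± 0.13, adjusted p = 0.0278) and fell by 0.13 ± 0.02 per week over the diet (adjusted p = 0.000179). The ratio of Mbl2 to Mbl1 within a library averaged 2.17 ± 0.399, 2.60 ± 0.109, 2.23 ± 0.687, 3.04 ± 0.383, 3.41 ± 0.183 and 2.96 ± 0.510 at weeks 1 to 6, against 3.43 ± 0.669 on normal diet (SD, n = 3 to 5), and overlapped normal diet at every week. Masp2, the protease that works with these lectins, had 68, 73.6 and 71.4 CPM at week 5, against 112, 123, 137, 111 and 109 CPM on normal diet. The groups did not overlap, and the log2 fold change was -0.74 ± 0.11 (adjusted p = 2.47e-05). Masp2 was called at week 6 too (-0.46 ± 0.11, adjusted p = 0.00254), and its relative Masp1 was called at week 5 only, at 2.02 to 3.89 CPM against 4.85 to 8.98 CPM on normal diet.

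C3, on which all complement routes meet, had 1382, 1604 and 1482 CPM at week 5 and 1626, 2069 and 1918 CPM at week 6, against 2934, 2713, 2311, 2680 and 3871 CPM on normal diet. Both late groups lay wholly below normal diet. The log2 fold change was -0.59 ± 0.18 at week 4 (SE, adjusted p = 0.0387), -0.96 ± 0.18 at week 5 (adjusted p = 0.000196) and -0.63 ± 0.18 at week 6 (adjusted p = 0.00875), while relative to hepatocyte markers week 6 stood at 0.11 ± 0.18 (adjusted p = 0.584). The week 6 call ended without library 1 of that week (adjusted p = 0.0638). Cfi, the plasma protease that breaks down activated C3, was called at week 5 (-0.51 ± 0.13, adjusted p = 0.00369) and week 6 (-0.44 ± 0.13, adjusted p = 0.0153). Cfb, the protease of the alternative pathway, was scarce at 0.778 to 1.07 CPM at week 5 against 1.35 to 3.26 CPM on normal diet, and its call there (-1.26 ± 0.50, adjusted p = 0.0496) ended in most fits that left out 1 library.

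**Figure D3:**
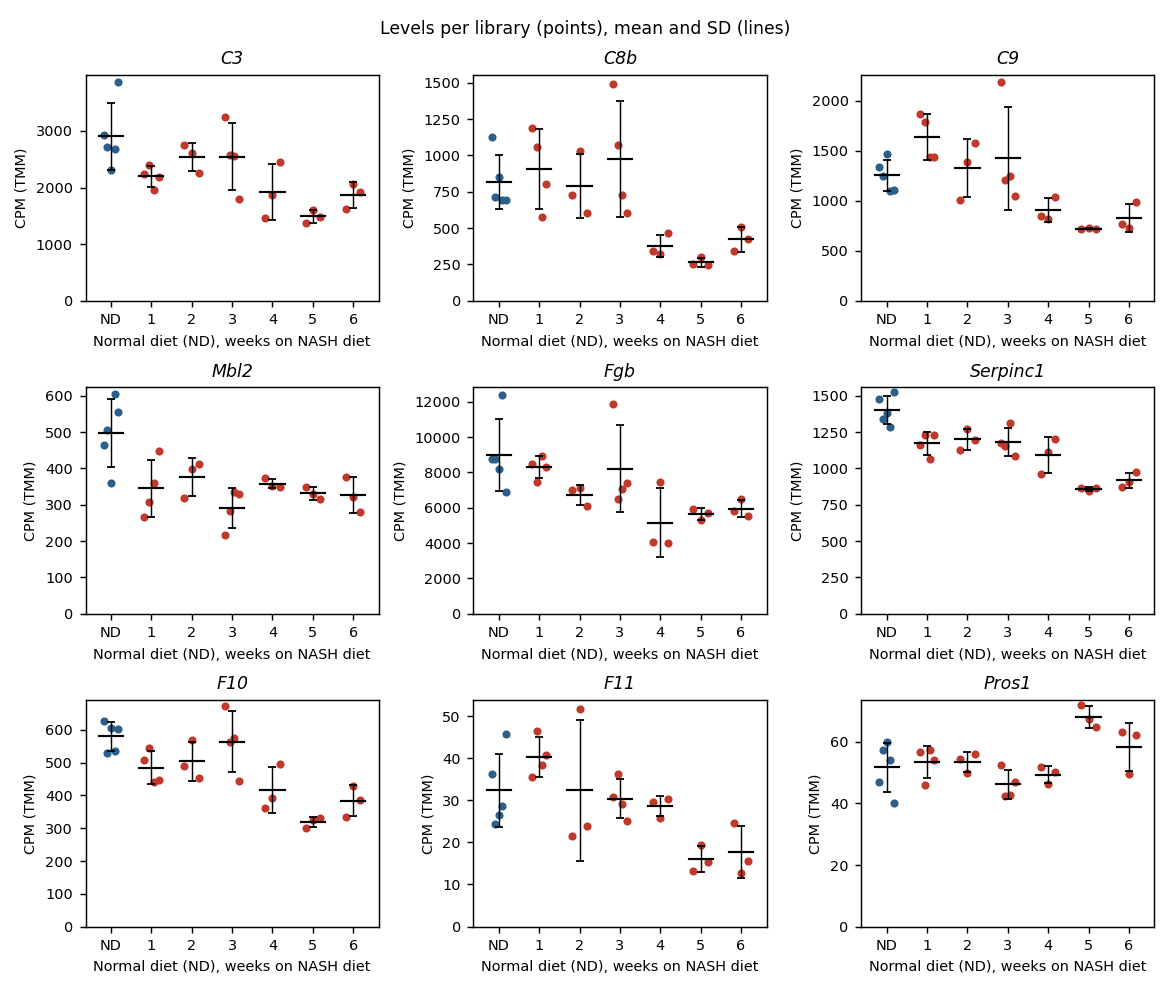
CPM (TMM) of 9 members in each library (points) on normal diet and after 1 to 6 weeks of NASH diet, with group means and SDs as lines. C3, C8b, C9, Fgb, Serpinc1, F10 and F11 have their lowest means at weeks 4 to 6, Mbl2 at week 3, and Pros1 its highest mean at week 5; relative to hepatocyte markers only C8b and Pros1 among these 9 were called at week 5.

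The terminal pathway builds the membrane attack complex. All 7 members of the terminal pathway were called lower at week 5, and 3 of them at week 6 (Hc, C8b and C9), and their log2 fold changes at week 5 ran from -0.35 (C8g) to -1.62 (C8b). Hc, which encodes complement component C5 and whose cleavage starts the pore, had 248, 275 and 279 CPM at week 5 and 303, 286 and 379 CPM at week 6, against 522, 542, 535, 470 and 513 CPM on normal diet. The late libraries all lay below normal diet, with log2 fold changes of -0.69 ± 0.17 at week 4 (SE, adjusted p = 0.015), -0.95 ± 0.17 at week 5 (adjusted p = 0.000125) and -0.68 ± 0.17 at week 6 (adjusted p = 0.00343).

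C8 is built from 3 chains, and their transcripts did not move as 1. C8b, the beta chain, had 344, 320 and 466 CPM at week 4, 251, 301 and 244 CPM at week 5 and 339, 508 and 422 CPM at week 6, against 1125, 712, 854, 691 and 694 CPM on normal diet. At weeks 1 to 3 it ranged widely, between 576 and 1493 CPM, and overlapped normal diet. Its log2 fold change of -1.62 ± 0.28 at week 5 (SE, adjusted p = 0.000159) was the largest of any member at any week, and it was the only member still called lower at week 5 when libraries were scaled to hepatocyte markers (-0.97 ± 0.31, adjusted p = 0.0106). At week 6 it stood at -0.21 ± 0.30 on that scale (adjusted p = 0.535). The call held with library size alone (-1.28, adjusted p = 0.000738) but not with the score of the 42 non-hepatocyte markers in the model (-0.88, adjusted p = 0.777). C8a, the alpha chain, had 365, 380 and 367 CPM at week 5, against 659, 712, 618, 631 and 504 CPM on normal diet, a log2 fold change of -0.75 ± 0.16 (adjusted p = 0.000673). C8g, the gamma chain, a lipocalin that the pore can do without, had 316, 334 and 322 CPM at week 5, against 412, 401, 468, 366 and 419 CPM on normal diet (-0.35 ± 0.11, adjusted p = 0.0181). All 3 lay below every normal-diet library at week 5, and by amounts that differed.

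A ratio of 2 transcripts within a library does not depend on scaling. The ratio of C8b to C8a averaged 0.820 ± 0.119, 0.714 ± 0.067 and 0.889 ± 0.085 at weeks 4, 5 and 6 (SD, n = 3 each), against 1.31 ± 0.278 on normal diet (n = 5). Its highest value at weeks 4 to 6 was 0.969 and its lowest on normal diet 1.00, so the groups did not overlap. Low values were also seen earlier in the diet, at 0.878 in week 1 library 3 and 0.817 in week 2 library 3, and both weeks overlapped normal diet. The ratio of C8g to C8a was 0.922 ± 0.134, 0.873 ± 0.007 and 0.761 ± 0.099 at weeks 4, 5 and 6, against 0.671 ± 0.117 on normal diet, and overlapped it at weeks 4 and 6 but not at week 5. These ratios were chosen with the levels known and were not tested. C8a and C8b are neighbours on chromosome 4 while C8g lies on chromosome 2. The 250 bases before the start of each neighbour, from RefSeq on GRCm38.p6 and read along the strand of the gene, are shown because these adjacent genes moved by different amounts. Capitals mark a match, on either strand, to an HNF1 type motif (GTTAAT) or a STAT type motif (TTCNNNGAA), letters known to be bound by regulators of liver genes.
C8a, chr4:104876399-104876648, minus strand: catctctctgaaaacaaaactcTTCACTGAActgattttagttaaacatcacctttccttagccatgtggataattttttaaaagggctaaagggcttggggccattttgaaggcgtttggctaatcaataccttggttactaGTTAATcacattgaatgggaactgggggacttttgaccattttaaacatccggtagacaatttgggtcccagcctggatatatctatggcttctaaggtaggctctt
C8b, chr4:104766067-104766316, plus strand: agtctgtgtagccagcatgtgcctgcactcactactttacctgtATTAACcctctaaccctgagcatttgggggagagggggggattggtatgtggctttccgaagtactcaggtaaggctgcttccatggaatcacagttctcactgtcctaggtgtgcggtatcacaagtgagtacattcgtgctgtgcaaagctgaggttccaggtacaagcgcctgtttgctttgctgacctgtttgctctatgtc
Both stretches held an HNF1 type match and only that of C8a a STAT type match. Such matches were in 5.4% and 6.5% of the promoters found for all genes in the count table. A match is not a bound site, and a link to the levels was not tested.

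**Figure D4:**
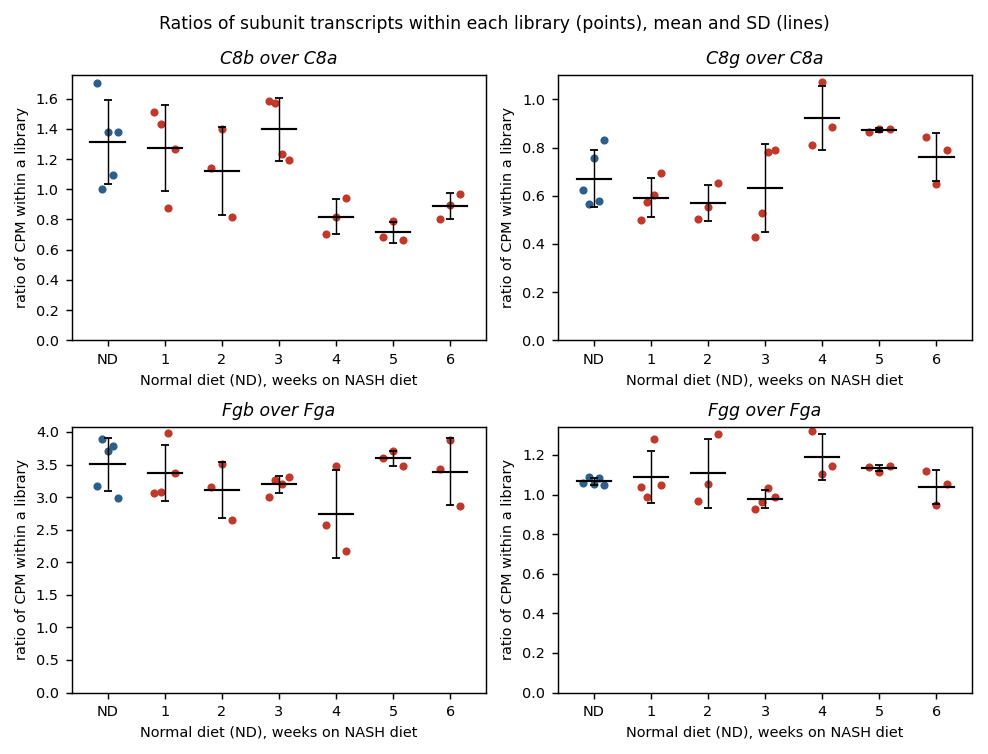
Ratios of CPM between subunit transcripts within each library (points) on normal diet and after 1 to 6 weeks of NASH diet, with group means and SDs as lines. C8b over C8a lies at or below 0.969 in all libraries of weeks 4 to 6 and at or above 1.00 on normal diet, with 1 library each of weeks 1 and 2 also below 1.00; Fgg over Fga lies above normal diet at weeks 4 and 5 and overlaps it at week 6.

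C6, C9 and vitronectin complete this group. C9, which forms the wall of the pore, had 716, 728 and 715 CPM at week 5, against 1340, 1249, 1464, 1099 and 1111 CPM on normal diet, without overlap. Its log2 fold change was -0.80 ± 0.19 at week 5 (SE, adjusted p = 0.00202) and -0.60 ± 0.19 at week 6 (adjusted p = 0.0204), and over weeks 1 to 6 it fell by 0.23 ± 0.03 per week (adjusted p = 2.33e-05). At week 1 it had 1868, 1791, 1440 and 1436 CPM, with a log2 fold change of 0.38 ± 0.17 that did not pass (adjusted p = 0.409). C6, which binds the first fragment of the pore, likewise stood at 788, 723, 555 and 647 CPM at week 1, against 444, 489, 650, 337 and 310 CPM on normal diet (0.60 ± 0.19, adjusted p = 0.135). It was called lower at week 5 (-0.53 ± 0.21, adjusted p = 0.0478) although the groups overlapped, and it fell by 0.21 ± 0.04 per week over the diet (adjusted p = 0.000139). The fall per week of C6, C9, Hc and C8b was also called relative to the hepatocyte markers, on which scale C6 and C9 were called higher at week 1, as were 3.15% of all genes. Vtn, which encodes vitronectin, a brake on the pore that also binds clotting inhibitors, was called at week 5 alone (-0.47 ± 0.16, adjusted p = 0.0197; 0.0695 without library 1 of that week).

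Of the vitamin K dependent clotting proteases, all 4 were called lower at week 5 and 3 at week 6 (F2, F7 and F10). F10, the protease that makes thrombin, had 301, 324 and 332 CPM at week 5 and 336, 430 and 388 CPM at week 6, against 628, 529, 607, 534 and 602 CPM on normal diet. Every late library lay below normal diet, with log2 fold changes of -0.86 ± 0.13 at week 5 (SE, adjusted p = 3.77e-05) and -0.59 ± 0.13 at week 6 (adjusted p = 0.00167). F2, the gene of prothrombin, had 1043, 1008 and 1007 CPM at week 5, against 1418, 1529, 1457, 1505 and 1321 CPM on normal diet (-0.50 ± 0.11, adjusted p = 0.0013). F7, whose product starts clotting with tissue factor, was at -0.69 ± 0.13 at week 5 (adjusted p = 0.000271) and -0.46 ± 0.13 at week 6 (adjusted p = 0.01). F9, the factor missing in haemophilia B, was called at week 5 only (-0.40 ± 0.13, adjusted p = 0.0169). F7 and F10 are neighbours on chromosome 8, with Proz next to F10.

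The anticoagulant system of protein C and its partners held the only member that was higher. Pros1 encodes protein S, the cofactor of activated protein C. It had 72, 67.6 and 65 CPM at week 5 and 63.4, 49.4 and 62.3 CPM at week 6, against 47.1, 57.2, 60, 54.1 and 40.1 CPM on normal diet. All 3 week 5 libraries lay above every normal-diet library, while 1 of week 6 fell among them. The log2 fold change was 0.40 ± 0.12 at week 5 (SE, adjusted p = 0.0122) and 0.17 ± 0.12 at week 6 (adjusted p = 0.317). The week 5 call ended without library 1 of that week (adjusted p = 0.0606) and in the fit that left out normal-diet libraries 1 and 5, those with the least signal of other liver cells (0.26, adjusted p = 0.122), and the sign turned with the marker score in the model (-0.03). The week 5 log2 fold change was larger with library size alone (0.73, adjusted p = 9.47e-05) and relative to hepatocyte markers (1.04 ± 0.15, adjusted p = 3.96e-06). The median over all genes moved up too, from -0.05 under TMM to 0.28 and 0.60 on these 2 scales. Proc, the gene of protein C, was lower at week 5 (-0.41 ± 0.12, adjusted p = 0.0111), and the ratio of Pros1 to Proc averaged 0.234 ± 0.012 and 0.188 ± 0.060 in week 5 and week 6 libraries (SD, n = 3 each), against 0.133 ± 0.014 on normal diet (n = 5). It lay above every normal-diet library at week 5 and overlapped normal diet at week 6, where 1 library had 0.120. Proz, whose product helps inhibit factor X, had 37.6, 43 and 42.2 CPM at week 5 and 47.4, 52.5 and 40.4 CPM at week 6, against 62.2, 56.4, 59.8, 52.9 and 64.2 CPM on normal diet. No late library reached normal diet, and it was called at both weeks (-0.53 ± 0.11, adjusted p = 0.000521, and -0.34 ± 0.11, adjusted p = 0.022).

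The contact system starts clotting on charged surfaces and releases bradykinin from kininogen. All 4 of its analysed members were called lower at week 5 and at week 6. F11, the protease that activates factor IX, was the scarcest of them and changed most. It had 13.3, 19.3 and 15.4 CPM at week 5, against 36.3, 24.5, 26.6, 28.5 and 45.8 CPM on normal diet, a log2 fold change of -1.01 ± 0.26 (SE, adjusted p = 0.00396) without overlap. At week 6 it was at -0.85 ± 0.26 (adjusted p = 0.0162), with 1 library among those of normal diet, and its fall of 0.26 ± 0.05 per week (adjusted p = 0.000173) was called relative to hepatocyte markers too. Kng1 and Kng2, the kininogen genes, stand side by side on chromosome 16 and share sequence. Kng2 had 125, 121 and 127 CPM at week 5 and 133, 131 and 160 CPM at week 6, against 238, 171, 161, 202 and 218 CPM on normal diet. No library of weeks 5 and 6 reached normal diet, and the log2 fold change of Kng2 was -0.67 ± 0.13 at week 5 (adjusted p = 0.000354) and -0.48 ± 0.13 at week 6 (adjusted p = 0.00709). Kng1 was at -0.71 ± 0.13 at week 5 (adjusted p = 0.000134), and the ratio of Kng2 to Kng1 was 0.117 ± 0.003 at week 5, against 0.113 ± 0.009 on normal diet. F12, which starts the contact route, was at -0.55 ± 0.12 at week 5 (adjusted p = 0.000743) and just passed at week 6 (-0.32 ± 0.12, adjusted p = 0.0449).

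F5 and F13b act at the last steps, as the cofactor of thrombin formation and as the carrier of the enzyme that crosslinks fibrin. F5 had 497, 450 and 428 CPM at week 5 and 406, 528 and 485 CPM at week 6, against 747, 664, 550, 559 and 611 CPM on normal diet. These did not overlap, and F5 was called at both weeks (-0.45 ± 0.13, SE, adjusted p = 0.0108, and -0.41 ± 0.13, adjusted p = 0.0262), although the sign turned with the marker score in the model. At weeks 1 to 3 F5 was at 0.15, 0.28 and 0.19 on the log2 scale, none of which passed, and it fell by 0.15 ± 0.02 per week (adjusted p = 4.17e-05). F13b was called at week 5 only (-0.34 ± 0.12, adjusted p = 0.0353) and stood at 0.00 with library size alone (adjusted p = 1).

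The fibrinogen genes, which lie side by side on chromosome 3 in the order Fgg, Fga, Fgb, were all called lower at weeks 5 and 6, and at week 4 Fgb alone of the 3 was called. Fgb, the beta chain and the most abundant member, had 5956, 5302 and 5719 CPM at week 5 and 5795, 6486 and 5561 CPM at week 6, against 8734, 8735, 8222, 12360 and 6873 CPM on normal diet. Fga, the alpha chain, had 1653, 1432 and 1643 CPM at week 5 and 1687, 1672 and 1947 CPM at week 6, against 2755, 2240, 2219, 3265 and 2306 CPM on normal diet. Fgg, the gamma chain, had 1883, 1597 and 1883 CPM at week 5 and 1888, 1587 and 2046 CPM at week 6, against 2910, 2441, 2332, 3540 and 2418 CPM on normal diet. For each chain every late library lay below every normal-diet library. The log2 fold changes at week 5 were -0.67 ± 0.20 for Fgb (SE, adjusted p = 0.0118), -0.70 ± 0.18 for Fga (adjusted p = 0.00309) and -0.61 ± 0.18 for Fgg (adjusted p = 0.00867). At week 6 they were -0.60 ± 0.20 for Fgb (adjusted p = 0.0292), -0.53 ± 0.18 for Fga (adjusted p = 0.025) and -0.57 ± 0.18 for Fgg (adjusted p = 0.0176). Without normal-diet library 4, the highest of its group for all 3 chains, the week 6 calls ended (adjusted p of 0.0861, 0.069 and 0.0514). The ratio of Fgg to Fga averaged 1.19 ± 0.116, 1.13 ± 0.016 and 1.04 ± 0.086 at weeks 4, 5 and 6 (SD, n = 3 each), against 1.07 ± 0.019 on normal diet (n = 5). Its libraries ran from 1.11 to 1.32 at week 4 and 1.12 to 1.15 at week 5, above the range of 1.05 to 1.09 on normal diet, from 0.928 to 1.03 at week 3, below that range, and overlapped it at weeks 1, 2 and 6. The ratio of Fgb to Fga averaged 2.74 ± 0.674, 3.60 ± 0.112 and 3.39 ± 0.513 at weeks 4, 5 and 6, against 3.51 ± 0.407 on normal diet, and overlapped normal diet at each of these weeks. These ratios were not tested. Relative to library size or to hepatocyte markers no chain was called at week 5.

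Since all 3 of these adjacent genes were called lower at weeks 5 and 6, the 250 bases before the start of each are shown, from RefSeq on GRCm38.p6 along the strand of the gene. Capitals mark matches on either strand to the HNF1 type motif GTTAAT, to the C/EBP type motif TTGCNNAA and to the STAT type motif TTCNNNGAA, whose factors are known to act on fibrinogen and other acute phase genes.
Fgg, chr3:83007474-83007723, plus strand: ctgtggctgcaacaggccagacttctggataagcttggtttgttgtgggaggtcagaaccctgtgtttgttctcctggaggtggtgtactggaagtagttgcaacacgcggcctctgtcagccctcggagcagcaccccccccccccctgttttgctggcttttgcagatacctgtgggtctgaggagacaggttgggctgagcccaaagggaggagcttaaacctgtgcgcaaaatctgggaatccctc
Fga, chr3:83025903-83026152, plus strand: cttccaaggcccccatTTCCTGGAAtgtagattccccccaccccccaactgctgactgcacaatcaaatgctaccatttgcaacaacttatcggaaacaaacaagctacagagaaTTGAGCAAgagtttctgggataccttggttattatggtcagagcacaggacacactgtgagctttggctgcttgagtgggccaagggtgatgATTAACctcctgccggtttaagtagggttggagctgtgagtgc
Fgb, chr3:83049864-83050113, minus strand: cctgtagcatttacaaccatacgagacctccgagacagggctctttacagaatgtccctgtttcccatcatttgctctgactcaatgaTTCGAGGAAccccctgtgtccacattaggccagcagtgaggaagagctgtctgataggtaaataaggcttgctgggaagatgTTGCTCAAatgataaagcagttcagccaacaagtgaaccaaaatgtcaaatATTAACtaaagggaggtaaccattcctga
Fga and Fgb each held 3 matches, 1 of each kind, and Fgg held none in this window. Among the 34 promoters found for 32 members, 9 (26.5%) held the HNF1 type motif, 9 (26.5%) the C/EBP type motif and 6 (17.6%) the STAT type motif. Over the 22056 promoters of all genes in the count table that had one, the shares were 5.4%, 8.9% and 6.5%. The HNF4 type letters CAAAGTCCA or CAAAGGTCA were in 1 member promoter (F7, 2.9%) and in 0.8% of all, and TATAAA was in 2 (Hc and Vtn, 5.9%) and in 10.1% of all. The motifs are different words, so that 1 promoter can hold several, and a match is a run of letters, not a bound site.

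Of the 4 fibrinolysis members, which bear on plasmin, the protease that dissolves fibrin, 3 were called lower at week 5 and 4 at week 6. Plg, the gene of plasminogen, had 1409, 1360 and 1398 CPM at week 5 and 1407, 1511 and 1371 CPM at week 6, against 2026, 2270, 2214, 2089 and 2154 CPM on normal diet. The groups did not overlap, with log2 fold changes of -0.63 ± 0.11 at week 5 (SE, adjusted p = 7.05e-05) and -0.59 ± 0.10 at week 6 (adjusted p = 0.000224). With library size alone Plg was still called at both weeks (adjusted p = 0.0114 and 0.0161), while relative to hepatocyte markers it stood at 0.02 and 0.13. Serpinf2, the gene of alpha-2-antiplasmin, the main plasmin inhibitor, had 372, 357 and 348 CPM at week 5 and 408, 431 and 345 CPM at week 6, against 550, 540, 509, 557 and 563 CPM on normal diet. Its log2 fold change was -0.60 ± 0.11 at week 5 (adjusted p = 0.000116) and -0.46 ± 0.10 at week 6 (adjusted p = 0.00179), without overlap. Cpb2, whose product slows fibrin breakdown, had 296, 287 and 289 CPM at week 5 and 260, 314 and 292 CPM at week 6, against 378, 474, 492, 378 and 363 CPM on normal diet. It was called at both weeks (-0.52 ± 0.14, adjusted p = 0.00624, and -0.53 ± 0.14, adjusted p = 0.0073), again without overlap. Hrg, a plasma glycoprotein that binds plasminogen and heparin, was the only member called at week 6 and not at week 5. It had 379, 241 and 374 CPM at week 6, against 432, 431, 431, 380 and 532 CPM on normal diet (-0.41 ± 0.14, adjusted p = 0.0295), and without the lowest library, 2, the adjusted p was 0.225.

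Both thrombin inhibitors were called lower at weeks 5 and 6, and Serpinc1, the gene of antithrombin, had the smallest p of all members at week 6. Serpinc1 had 868, 846 and 865 CPM at week 5 and 872, 906 and 976 CPM at week 6, against 1475, 1340, 1381, 1286 and 1524 CPM on normal diet. All 6 late libraries lay below normal diet by more than the range of either group. The log2 fold change was -0.36 ± 0.10 at week 4 (SE, adjusted p = 0.0296), -0.71 ± 0.10 at week 5 (adjusted p = 1.91e-05) and -0.61 ± 0.10 at week 6 (adjusted p = 0.000125). With library size alone it was -0.37 at week 5 (adjusted p = 0.00111) and -0.31 at week 6 (adjusted p = 0.00627), and relative to hepatocyte markers -0.05 and 0.11 (adjusted p = 0.735 and 0.388). Serpind1, the gene of heparin cofactor II, had 266, 291 and 262 CPM at week 5 and 308, 348 and 251 CPM at week 6, against 408, 433, 383, 394 and 425 CPM on normal diet. These did not overlap, at -0.58 ± 0.11 (adjusted p = 0.000327) and -0.43 ± 0.11 (adjusted p = 0.00545).

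The calls differed in how far they rested on single libraries. Of the 37 calls of week 5, 25 held in each of the 8 fits that left out 1 library of the compared groups, and of the 27 of week 6, 9 did: C2, Masp2, Hc, F10, Kng2, Plg, Serpinf2, Cpb2 and Serpinc1. The 12 that were lost in at least 1 fit at week 5 were C4b, Cfb, C6, C8g, Vtn, F9, Proc, Pros1, F5, F13b, Fgb and Fgg, with adjusted p-values of 0.0511 to 0.18 in those fits. At week 6 the adjusted p-values of lost calls were 0.0502 to 0.362. The count at week 6 was 17 without library 1 or library 3 of that week. None of the 9 calls of week 4 (C2, Masp2, C3, Hc, C8b, F10, Fgb, Plg and Serpinc1) held in all fits: the count was 0 without library 1 of that week, 2 without library 2, 4 without normal-diet library 1 and 5 without normal-diet library 5. At week 1 the count of 0 was 3 without normal-diet library 3 and 1 without library 4 of that week. Every week 5 library lay below every normal-diet library for 36 members (18.2% of all genes did so), every week 6 library for 25 (10.6%) and every week 4 library for 17 (6.65%).

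Over weeks 1 to 6 alone, the slope of a line fitted to the weekly means was called as falling for 34 members (14.9% of all genes tested). The median slope was -0.10 log2 units per week beside -0.01 over all genes. Whether the course was straight was not tested, and against normal diet the median member stood at -0.59 at week 5 and -0.44 at week 6. The steepest slopes were those of C8b (-0.33 ± 0.05, SE, adjusted p = 4.01e-05), F11, Cfb, C9 and C6. The 6 that did not pass were C1s1, Mbl2, Vtn, F7, Kng2 and Pros1. Relative to hepatocyte markers, 5 were called as falling (Hc, C6, C8b, C9 and F11; 1.25% of all genes) and 2 as rising (Mbl2 and Pros1; 40.8%). In the joint test of all 7 groups 34 members passed (29.9% of all genes).

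When the mean log2 level of the 42 markers of other liver cells was added to the model, edgeR called no member at weeks 4, 5 or 6 or over the weeks. At an unadjusted p under 0.05, 9 of the 40 members were lower and none higher at week 5, 5 were lower and none higher at week 6, and 15 had a falling line over the weeks, beside 4.12%, 5.22% and 4.75% of all genes that were lower at that threshold. Across all 11869 genes 45 (0.379%), 8 (0.0674%), 9 (0.0758%) and 0 were then called. The score itself was 5.57 ± 0.168 and 5.31 ± 0.193 at weeks 5 and 6 (SD, n = 3 each), against 3.09 ± 0.702 on normal diet (n = 5). No library of weeks 5 and 6 had a score as low as the highest on normal diet, so the late diet and the score cannot be told apart.

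Other genes of the same pathways, from lists that do not overlap the members, fell into lists that were lower and lists that were higher at week 6. Over all genes tested, 10.5% were called lower and 16.3% higher at that week, and 30.7% of genes at 50 CPM or more were called lower. Of 15 other liver-made complement genes tested, 9 were called lower and 3 higher at week 6 (median -0.49). The 3 higher were Colec10 (2.04 ± 0.39, SE, adjusted p = 0.000595), Colec11 (2.12 ± 0.48, adjusted p = 0.00269) and Fcna (1.58 ± 0.35, adjusted p = 0.00224), pattern-recognition molecules of the lectin pathway, of which Colec11 is also in the stellate and Fcna in the Kupffer cell marker list used here. Of 18 other clotting genes made in liver or serving secretion, 8 were called lower and none higher (median -0.41). The smallest p-values there were those of Hpn, a serine protease of the hepatocyte surface (-0.43 ± 0.09, adjusted p = 0.000935), Vkorc1, which recycles vitamin K for the carboxylation of clotting factors (-0.43 ± 0.11, adjusted p = 0.00511), and Itih1 and Itih2, chains of a plasma protease inhibitor (-0.43 ± 0.10, adjusted p = 0.00236, and -0.52 ± 0.14, adjusted p = 0.00733).

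By contrast, 11 of 13 complement genes mainly of other cells were called higher at week 6 and none lower (median 2.06), beside 16.3% of all genes called higher at that week and 10.5% called lower. In this list, C1qa, C1qb, C1qc and Vsig4 are also Kupffer cell markers used here, and Itgam is in the list of monocyte, macrophage and dendritic markers. Cfd, the protease adipsin of the alternative pathway, averaged 34.9 ± 29.9 CPM at week 6 (SD, n = 3), against 0.742 ± 0.492 CPM on normal diet (n = 5), a log2 fold change of 5.52 ± 0.80 (SE, adjusted p = 8.98e-05). C3ar1 and C5ar1, receptors for fragments of C3 and C5 on immune cells, were at 2.34 ± 0.38 (adjusted p = 0.000139) and 3.38 ± 0.64 (adjusted p = 0.000392), and Cfp, the gene of properdin, which holds the alternative pathway enzyme together, at 2.06 ± 0.39 (adjusted p = 0.000614). Of 11 clotting genes mainly of other cells 6 were called higher and 1, Tfpi2, lower (median 1.89). F8, which endothelial cells make, averaged 91.7 ± 13.9 CPM at week 6 (SD, n = 3), against 24.4 ± 9.89 CPM on normal diet (n = 5), a log2 fold change of 1.89 ± 0.25 (SE, adjusted p = 2.8e-05). Anxa2, a surface binder of plasminogen, was at 2.40 ± 0.25 (adjusted p = 1.88e-06), Thbd, the thrombin receptor thrombomodulin, at 3.02 ± 0.39 (adjusted p = 1.2e-05) and Tfpi, the inhibitor of the tissue factor pathway, at 2.28 ± 0.39 (adjusted p = 0.000208). Of 19 transcription factors and signalling genes of liver secreted proteins, 2 were called higher and 2 lower, shares near or under those over all genes. The higher were Cebpd (1.17 ± 0.29, adjusted p = 0.00361) and Il6st (0.55 ± 0.14, adjusted p = 0.00421), and the lower were Cebpa (-0.40 ± 0.12, adjusted p = 0.0157) and Hnf4a (-0.44 ± 0.15, adjusted p = 0.0283), with a list median of -0.25.

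**Figure D5:**
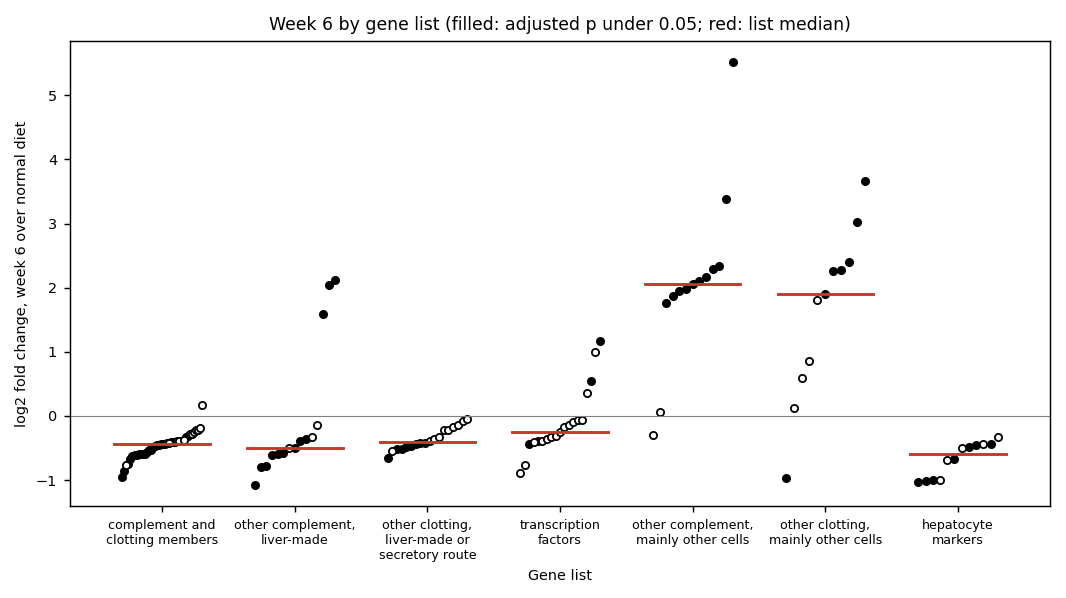
Log2 fold change at week 6 of NASH diet over normal diet (TMM) of each tested gene in 7 lists, with filled points for an adjusted p under 0.05 and red lines for list medians. The members (median -0.44) lie near the other liver-made lists and the hepatocyte markers (median -0.59), below the lists of other cells (medians 2.06 and 1.89). Scaled to hepatocyte markers, 24 of the 27 members called lower lie above 0, and the median of all genes lies at 0.66.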

How the data were processed

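Counts per gene symbol for 25 libraries of sorted mouse hepatocytes were used as deposited. Per the labels, the kit was QuantSeq 3' FWD. The tools STAR 2.7.1a, cutadapt and FastQC and the build GRCm39 are listed in the submitters' processing notes. The sources used here do not give the counting tool or annotation, nor how reads shared by near-identical genes (C4a and C4b, Kng1 and Kng2, C1s1 and C1s2) were counted, so the values of C4b, Kng1, Kng2 and C1s1 are uncertain in that respect. The deposited counts were whole numbers with differing totals, and no 2 libraries of a group were copies (chi-squared over degrees of freedom of 5.42 to 32.2 per pair).

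The test was that of edgeR 4.0.16 (R 4.3.3): TMM factors, filterByExpr by group, robust quasi-likelihood F-tests, 1 model of 7 groups with 18 residual degrees of freedom, and Benjamini-Hochberg adjustment over all 11869 genes tested within a comparison. An SE is the absolute log2 fold change divided by the root of F. Contrasts were each week against normal diet, a straight line through the mean of each diet week, and a joint test of all groups. The fits were tested on simulated data. The weeks share the normal-diet libraries.

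The members and lists were chosen with earlier results of these data known. Values per library were given for the members called at the most weeks, for at least 1 of each role and for the most abundant. Those of Pros1, C8a, C8g, C9, C6, C1s1, C4bp, C4b, F2, F11, Fga, Hrg, Masp1 and Cfb were added after their values were seen. Of other lists, up to 4 genes with the smallest p at week 6 were named, and 1 result is not reported here.

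Alternatives were DESeq2 size factors, library size only, no filter or one of 5 CPM in 3 libraries, the DESeq2 1.42.0 test, limma 3.58.1 voom, the replicate number as a block, a marker score covariate, both compared groups only, libraries left out and, chosen after seeing the data, scaling to 12 hepatocyte markers. The promoter table is of another build (GRCm38.p6), so that only sequences, their own coordinates and gene order were taken from it.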

Additional observations from a re-analysis of the deposited data

Results flagged for a closer look

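Libraries far from the others of their group were looked for in 120 sets of 4 or 5 libraries (40 members in each of 3 groups), and 5 were found, where chance gives about 5% of sets. Week 3 library 1 stood apart for 2 fibrinogen chains, with 3950 CPM of Fga (2000 to 2240 CPM in the other week 3 libraries) and 11900 CPM of Fgb (6520 to 7420 CPM). Week 3 library 4 had 387 CPM of F12, below 442 to 448 CPM in the others. Week 1 library 1 had 453 CPM of Serpinf2, below 534 to 546 CPM. Normal-diet library 2 had 696 CPM of C4b, above 434 to 495 CPM, and the week 5 call of C4b ended without it. Groups of 3 libraries were not examined in this way.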

How the results depend on the processing

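With 37, 27, 34 and 34 members called at week 5, week 6, over the trend and in the joint test, and 0, 0, 1 and 9 at weeks 1 to 4, the counts moved by over 1.5 times in these fits. Library size only gave 1, 3, 17, 4, 16 and 15 at weeks 1, 4, 5 and 6, for the trend and in the joint test. Hepatocyte marker scaling, chosen after seeing the data, gave 3, 1, 7, 2, 7 and 11 at weeks 1 to 6, 7 for the trend and 12 in the joint test. The marker score covariate gave 0 at weeks 4, 5 and 6, for the trend and in the joint test. The DESeq2 test gave 2 at week 1, and no filter gave 4 at week 4. Without normal-diet libraries 1 and 5 there were 0 at week 3 and 3 at week 4, and with only both compared groups 0, 2 and 15 at weeks 3, 4 and 6. Leaving out 1 library gave 0 to 3, 0 to 0, 0 to 1, 0 to 10, 30 to 37 and 17 to 26 at weeks 1 to 6, 31 to 37 for the trend and 27 to 38 in the joint test. Signs turned with the marker score for F9 (0.064), Pros1 (-0.029) and F5 (0.15) at week 5 and for C3 (0.0040), F11 (0.021), Kng1 (0.0083) and F5 (0.13) at week 6, and with library size only for F13b at week 5 (0.00019). The cause was not tested. The replicate numbers did not pair the libraries (correlation of deviations of -0.44 to 0.41 over 66 same-number pairs, median -0.01), and as a replicate block they gave 1 at week 2 and 8, 36, 25, 34 and 32 at weeks 4, 5 and 6, for the trend and in the joint test. With 3 to 5 libraries a group, differences near the spread could not be resolved, and Cfb and Masp1 were measured at a few CPM.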
